A study of Mus musculus with 6 samples.

Results

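The genes described here take up thyroid hormone, activate or inactivate it, and carry its signal into the nucleus. They were picked by gene name, from a list drawn up with earlier results of these data known, as the rows of the deposited count table for the deiodinases Dio1 and Dio2, the hormone carriers Slc16a10, Slco4a1, Slc7a5 and Slc7a8, the nuclear receptors Thra and Thrb, and the hormone-binding crystallin Crym, which makes 9 of the 21878 genes in the table. All 9 were present, 8 had enough reads to be tested, and Crym did not. RNA had been sequenced from thyroid glands of untreated female mice aged 12 weeks, from 3 Thy-Tet1+/+ mice and 3 mice that the labels call Thy-Tet1-/-, with 1 library each. In the sample titles these groups are called control and treatment, in that order. The Thy-Tet1-/- mice came from crosses of Tet1 flox/+ mice with a thyroid-specific Cre line, so that the gene for the DNA demethylating enzyme TET1 was to be lost in the follicular epithelium. Their wild-type littermates were the Thy-Tet1+/+ controls. Because whole glands were taken, the libraries also hold RNA from cells in which this Cre is not active. The comparison asked which transcripts of the gland differ when Tet1 is deleted from its follicular cells.

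The thyroid secretes mostly thyroxine (T4), a prohormone. Deiodinases, which carry selenocysteine in the active site, remove iodine from the outer ring to give the receptor ligand triiodothyronine (T3), or from the inner ring to inactivate it. Both hormones need membrane carriers to enter or leave a cell, and in the nucleus T3 binds THRA or THRB on DNA, usually beside a retinoid X receptor, where it exchanges corepressors for coactivators. The thyroid is itself a site of deiodination, and in rodents its type 1 enzyme and carriers contribute to the hormone that leaves the gland.

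The 3 sequences below are the 250 bases before the RefSeq start of Dio1 and Slco4a1, the 2 genes whose difference between the groups was past the limits given further on, and of Dio2, whose SD exceeded its mean in both groups. They were read from RefSeq (GRCm38.p6), in which 6 of the 9 genes had an entry, and are printed from 5′ to 3′ on the strand of the gene. Capitals mark matches, on either strand, to the cAMP response element TGACGTCA, the TATA box TATAAA, the GC box GGGCGG or the E-box CACGTG. They lie at chr4:107307169-107307418 on the minus strand for Dio1, at chr12:90739039-90739288 on the minus strand for Dio2, and at chr2:180455995-180456244 on the plus strand for the upstream start of Slco4a1.
Dio1: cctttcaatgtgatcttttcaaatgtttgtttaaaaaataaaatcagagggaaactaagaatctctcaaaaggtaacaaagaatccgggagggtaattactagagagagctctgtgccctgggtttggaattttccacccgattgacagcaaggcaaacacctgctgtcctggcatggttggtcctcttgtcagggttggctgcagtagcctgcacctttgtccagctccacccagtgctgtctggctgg
Dio2: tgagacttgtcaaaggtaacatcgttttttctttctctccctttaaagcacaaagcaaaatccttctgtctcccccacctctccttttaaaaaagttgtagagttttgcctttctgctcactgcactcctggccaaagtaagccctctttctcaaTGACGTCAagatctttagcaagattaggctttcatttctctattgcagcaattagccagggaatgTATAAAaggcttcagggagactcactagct
Slco4a1: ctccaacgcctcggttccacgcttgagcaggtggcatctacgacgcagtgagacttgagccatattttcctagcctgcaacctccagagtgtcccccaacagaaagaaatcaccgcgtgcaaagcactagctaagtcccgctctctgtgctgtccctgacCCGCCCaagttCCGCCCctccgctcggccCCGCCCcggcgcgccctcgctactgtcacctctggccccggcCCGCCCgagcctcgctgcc

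The Dio2 window held 1 cAMP response element, beginning 95 bases before the start, and 1 TATA box, beginning 30 bases before it. The element contains the shorter core TGACG on each strand, so those matches are the same bases. Of 32851 RefSeq windows of this length, 1.55% held the full element, 17.8% the core and 12.4% the TATA box. The Slco4a1 window held 4 GC boxes, read as CCGCCC on the printed strand and beginning 90, 79, 61 and 19 bases before the start. At least 1 GC box was in 32.7% of all windows. A second RefSeq window of Slco4a1, at the downstream start (chr2:180460728-180460977), held 0 of them and no other motif searched. In the Dio1 window none of these letters were found, and none of the 3 held an E-box, which 6.02% of all windows did. The direct repeat to which T3 receptors are known to bind, DR4 (AGGTCA repeated after any 4 bases), was in 0.0152% of all windows and in none of the 3. The windows of Dio1, Dio2 and Slco4a1 were 46.8%, 41.6% and 64.8% G and C. Among the windows not printed, that of Slc16a10 held 3 GC boxes, that of the upstream start of Thrb 3 and that of Slc7a8 1.

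The 6 libraries held between 8867683 and 19950898 counts, the lowest being Thy-Tet1+/+ mouse 1. The labels name the thyroid as the source, while their protocol text speaks of retinas, and the thyroid follicular markers bear out the thyroid: their summed level was 254274 to 315654 CPM (counts scaled to a common library size by TMM) in Thy-Tet1+/+ and 192553 to 238218 in the glands labelled Thy-Tet1-/-, nearly all of it thyroglobulin. Of the 9 markers, 8 were tested, with 1 past the limits in each direction, and Slc26a4 stayed at or below 0.277 CPM. Tet1 itself went against the label, with 48, 71 and 62 counts in Thy-Tet1+/+ and 172, 162 and 241 in the glands labelled Thy-Tet1-/- (log2 fold change 1.28 ± 0.27 SE, adjusted p = 0.101, edgeR). It was past the limits without overlap, and DESeq2 gave it an adjusted p of 0.0012. Over the other settings its log2 fold change lay between 1.14 and 1.75. Gene counts do not show which exons were read, so the deletion could not be checked, and every direction below is between libraries as labelled. RNA of neighbouring tissues differed widely: 10 skeletal muscle markers summed to 943 to 7538 CPM in Thy-Tet1+/+ and to 42.0 to 8307 CPM in the other group, and 5 brown adipocyte markers to 28.7 to 120 CPM and 73.7 to 570 CPM. None of the muscle markers were past the limits, and 2 of 5 brown adipocyte markers were, both higher in the glands labelled Thy-Tet1-/-. The 3 parathyroid markers summed to 89.1 to 12919 CPM in Thy-Tet1+/+ and to 4234 to 9313 CPM in the other group. The 5 T cell markers summed to 11.0 to 121 CPM and 8.12 to 427 CPM, highest in Thy-Tet1+/+ mouse 1 and mouse 3 labelled Thy-Tet1-/-. Of these 5, 4 were tested, and neither this list nor the parathyroid list had a tested gene past the limits.

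Among the 9 genes, Dio1 was lower and Slco4a1 was higher in the glands labelled Thy-Tet1-/-, Thra was lower by less, and the other 5 tested genes overlapped between the groups. The limits used to count genes were those of the study, a change of at least 1.5-fold with an unadjusted p below 0.05. Past them were 2 of the 8 tested genes, against 9.2% of all 14143 tested genes, and the 2 were 1 higher (5.54% of all genes were past the limits as higher) and 1 lower (3.66%). An unadjusted p below 0.05 was reached by 3 of the 8, against 18.9% of all genes, and the 3 libraries of one group did not overlap those of the other for 3 of the 8, against 26.8%. After Benjamini-Hochberg adjustment over all tested genes, edgeR called 0 of the 8 at 0.05 (0.113% of all genes) and limma-voom also 0, while DESeq2 called 1 of them, Dio1, against 9.01% of the genes to which it gave an adjusted p. The median log2 fold change of the 8 was 0.10 and that of all genes was below 0.001. With 8 genes, these shares rest on 2 or 3 genes each. Among them, Slco4a1 had enough reads for the test only through the glands labelled Thy-Tet1-/-, where it was higher.

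**Figure D1:**
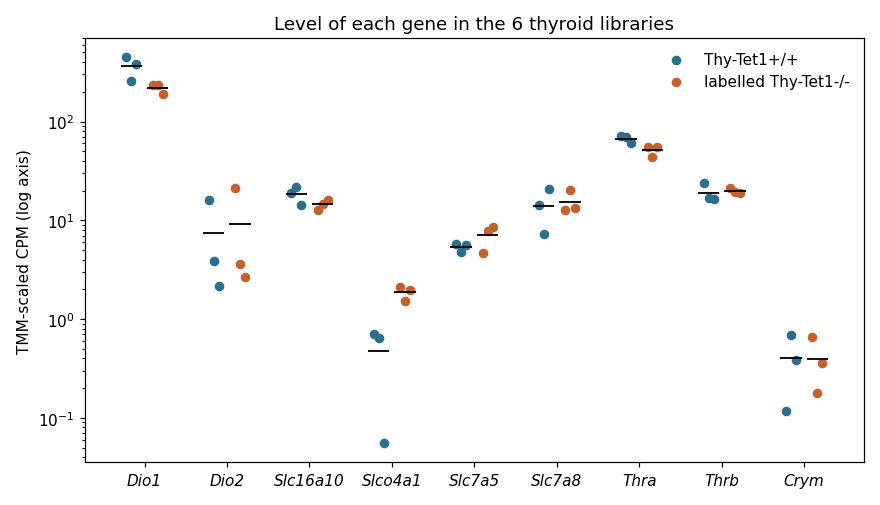
Level of each of the 9 genes in each library, as TMM-scaled CPM on a log axis, with 1 point per mouse and a line at the mean of the 3. Dio1 and Thra are lower and Slco4a1 is higher in every gland labelled Thy-Tet1-/- than in any Thy-Tet1+/+ library, and Dio2 spreads within each group from below 4 CPM to above 16 CPM.

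Dio1 (NCBI gene 13370, chr4:107291465-107307169, minus strand, GRCm38) encodes the type 1 deiodinase, which works on both rings of the hormone and is typical of liver, kidney and thyroid. Its level was 448, 259 and 384 CPM in the 3 Thy-Tet1+/+ mice and 236, 236 and 190 CPM in the glands labelled Thy-Tet1-/-. All 3 of the latter lay below the lowest control, mouse 2, by a gap that was small beside the spread among the controls. The means were 364 ± 95.9 CPM and 221 ± 26.7 CPM (SD, n = 3 each), a log2 fold change of -0.72 ± 0.22 (SE), past both limits. Adjusted over all genes, p was 0.164 in edgeR's quasi-likelihood test and 0.0229 in DESeq2, and over the other settings it lay between 0.0229 and 0.546. Without Thy-Tet1+/+ mouse 1, the shallowest library and the one with most Dio1, the log2 fold change was -0.54, inside the fold limit. With the skeletal muscle score as a covariate it was -0.52 (adjusted p = 0.507, edgeR), and with the brown adipocyte score, a covariate chosen after seeing the data, it was -1.09 (adjusted p = 0.230). Of the follicular markers, thyroglobulin and Iyd were lower in this group and Pax8 and Nkx2-1 higher (log2 fold change -0.43, -0.63, 0.42 and 0.65), so they did not move one way. In whole glands fewer cells of a type cannot be told apart from less RNA per cell.

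Dio2 (NCBI gene 13371, chr12:90724552-90738438, minus strand) encodes the type 2 deiodinase, an outer-ring enzyme that makes T3 inside cells of brown fat, brain and pituitary and whose gene responds to cAMP. It was read 136, 72 and 39 times in Thy-Tet1+/+ and 389, 61 and 53 times in the glands labelled Thy-Tet1-/-, or 16.1, 3.85 and 2.16 CPM and 21.2, 3.61 and 2.69 CPM. Mouse 1 of each group stood far above the other two, and the groups overlapped over most of their range. The means were 7.38 ± 7.63 CPM and 9.17 ± 10.4 CPM, and the log2 fold change of 0.34 ± 1.01 (adjusted p = 0.897, edgeR) was smaller than its standard error. Its sign turned when 1 library was left out, from -1.22 without mouse 1 labelled Thy-Tet1-/- to 1.60 without Thy-Tet1+/+ mouse 1.

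The libraries with most Dio2 were also those with the highest brown adipocyte markers of their own group. The summed level of the 5 markers was 120, 28.7 and 58.4 CPM in Thy-Tet1+/+ and 570, 246 and 73.7 CPM in the glands labelled Thy-Tet1-/-. Ucp1, the uncoupling protein that defines brown fat, was at 60.4, 9.63 and 8.10 CPM and at 324, 110 and 37.2 CPM, and none of the 5 markers was at 0 in any library. The order of libraries was not the same for the deiodinase and the markers: mouse 2 labelled Thy-Tet1-/- had 246 CPM of the markers and 3.61 CPM of Dio2, while Thy-Tet1+/+ mouse 1 had 120 CPM of the markers and 16.1 CPM of Dio2. Leaving out mouse 1 of each group, a setting chosen after seeing the data, gave a Dio2 log2 fold change of 0.07 ± 0.47, and the brown adipocyte score as a covariate gave -1.83 ± 0.77 (adjusted p = 0.330, edgeR). The part of brown fat in the Dio2 level was not tested.

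**Figure D2:**
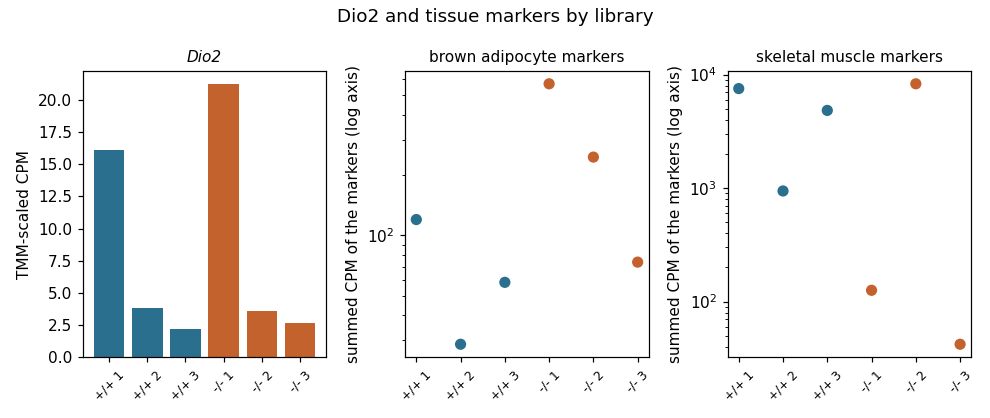
Dio2 (TMM-scaled CPM, bars from 0), the summed CPM of 5 brown adipocyte markers and that of 10 skeletal muscle markers (both on log axes) in the 6 libraries, with +/+ for Thy-Tet1+/+ and -/- for glands labelled Thy-Tet1-/-. Mouse 1 of each group is highest for Dio2 and for the brown adipocyte markers of its group, while muscle markers run from 42.0 to 8307 CPM across libraries in another order.

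Dio3, the inner-ring deiodinase that inactivates T4 and T3 and that was not among the 9 genes, was at 0.203 CPM or less in every library and was not tested. Per kilobase of exon, the scale on which genes can be set side by side, Dio1 made up 97.0% to 99.8% of the 3 deiodinases in every library. Within a library the ratio of Dio1 to Dio2 counts, which does not depend on how libraries are scaled, was 27.8, 67.4 and 177 in Thy-Tet1+/+ and 11.1, 65.4 and 70.6 in the glands labelled Thy-Tet1-/-. The groups overlapped. On the log2 scale the means were 6.10 ± 1.33 and 5.21 ± 1.50 (SD, n = 3), and the difference of -0.89 gave p = 0.5 in a two-sided exact permutation test, in which 3 against 3 libraries cannot go below 0.1. Leaving out 1 library moved the difference from -1.55 without Thy-Tet1+/+ mouse 1 to -0.029 without mouse 1 labelled Thy-Tet1-/-.

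Slco4a1 (NCBI gene 108115, chr2:180456245-180474867, plus strand) encodes an organic anion transporter, OATP4A1, that carries T4 and T3 among other substrates. It was read 6, 12 and 1 times in Thy-Tet1+/+ and 39, 26 and 39 times in the glands labelled Thy-Tet1-/-, which is 0.712, 0.642 and 0.0555 CPM against 2.12, 1.54 and 1.98 CPM. Each of the latter was above the highest control, although all 6 values come from few reads. The gene passed the filter on low counts only through the glands labelled Thy-Tet1-/-, so its higher level there helped it to be tested. The means were 0.470 ± 0.360 CPM and 1.88 ± 0.305 CPM, a ratio of 4.01, and the fitted log2 fold change was 2.05 ± 0.75 (adjusted p = 0.214, edgeR). Over the other settings that adjusted p was between 0.065 and 0.480, and DESeq2 gave none, since the gene fell below its count filter. Thy-Tet1+/+ mouse 3, with a single read, set part of the size: without it the log2 fold change was 1.47 ± 0.45, still past the limits. Without mouse 1 or mouse 3 labelled Thy-Tet1-/- it was 1.92 ± 0.90 and 2.01 ± 0.85, no longer past the p limit. With the skeletal muscle or the brown adipocyte score as a covariate it was 1.85 ± 0.84 and 1.93 ± 1.00, also not past it.

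Slc16a10 (NCBI gene 72472, chr10:40033532-40142258, minus strand) encodes MCT10, a carrier of aromatic amino acids and of T3. Its level was 19.0, 21.8 and 14.3 CPM in Thy-Tet1+/+ and 12.7, 14.5 and 16.1 CPM in the glands labelled Thy-Tet1-/-, with Thy-Tet1+/+ mouse 3 inside the range of the other group. The log2 fold change was -0.35 ± 0.20 (adjusted p = 0.399, edgeR). It was -0.50 without Thy-Tet1+/+ mouse 3, then with an unadjusted p below 0.05, and -0.20 without Thy-Tet1+/+ mouse 2. It was -0.17 with the brown adipocyte score as a covariate and 0.17 with libraries scaled to 10 epithelial genes.

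Slc7a5 and Slc7a8 encode LAT1 and LAT2, the light chains of amino acid exchangers that also pass thyroid hormones or their metabolites and that work as pairs with the heavy chain encoded by Slc3a2. Slc7a5 (NCBI gene 20539, chr8:121881150-121907694, minus strand) was at 5.69, 4.81 and 5.66 CPM in Thy-Tet1+/+ and at 4.63, 7.88 and 8.59 CPM in the glands labelled Thy-Tet1-/-. Of the latter, 2 lay above all controls and 1 below them (log2 fold change 0.39 ± 0.30, adjusted p = 0.528, edgeR). Slc7a8 (NCBI gene 50934, chr14:54722209-54781946, minus strand) was at 14.2, 7.33 and 20.6 CPM and at 12.9, 20.2 and 13.3 CPM, so the control libraries alone covered the whole range (0.14 ± 0.39, adjusted p = 0.892, edgeR). The ratio of Slc7a5 to Slc7a8 counts was 0.4, 0.657 and 0.274 in Thy-Tet1+/+ and 0.360, 0.390 and 0.645 in the other group, a log2 difference of 0.11 with p = 1 in the exact permutation test. Slc3a2 was at 90.6 to 124 CPM and 93.8 to 106 CPM (-0.07 ± 0.14, adjusted p = 0.821, edgeR).

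Thra (NCBI gene 21833, chr11:98740638-98769006, plus strand) encodes the T3 receptor alpha and, by splicing, a form that does not bind T3; gene counts hold both. Its level was 71.9, 69.0 and 60.9 CPM in Thy-Tet1+/+ and 55.7, 44.1 and 55.1 CPM in the glands labelled Thy-Tet1-/-. The groups did not overlap, and the gap between the nearest libraries was smaller than the spread within either group. The means were 67.3 ± 5.69 CPM and 51.7 ± 6.53 CPM, and the log2 fold change of -0.38 ± 0.13 (adjusted p = 0.201, edgeR) was inside the fold limit, with an unadjusted p below 0.05. Leaving out 1 library at a time gave -0.46 to -0.28, with the unadjusted p above 0.05 without Thy-Tet1+/+ mouse 1 or 2 or without mouse 2 labelled Thy-Tet1-/-. With libraries scaled to 10 epithelial genes, which moved the median of all genes to 0.50, it was 0.11. Relative to that median it was -0.38. That is no separate check, since a change of scaling shifts all genes by about the same amount.

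The last exons of Thra overlap those of Nr1d1, the clock repressor REV-ERB alpha, on the opposite strand over 263 bases, 5.70% of the exon length of Thra. Nr1d1 was at 174, 147 and 121 CPM in Thy-Tet1+/+ and at 252, 256 and 256 CPM in the glands labelled Thy-Tet1-/- (log2 fold change 0.79 ± 0.15, adjusted p = 0.0919, edgeR). Its direction was opposite to that of Thra. The library kit is described as directional in one place of the labels and another kit is named in the same text, while the strand setting of the counting is not given in the sources used here, so reads of the 2 genes in these 263 bases may not have been told apart.

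Thrb (NCBI gene 21834, chr14:17660261-18038090, plus strand) encodes the T3 receptor beta, the form that mediates feedback in the pituitary. It was at 23.8, 16.8 and 16.6 CPM in Thy-Tet1+/+ and at 21.1, 19.2 and 19.0 CPM in the glands labelled Thy-Tet1-/-, all 3 of which lay between the controls (log2 fold change 0.06 ± 0.18, adjusted p = 0.904, edgeR). The ratio of Thra to Thrb counts within a library was 3.01, 4.11 and 3.67 in Thy-Tet1+/+ and 2.64, 2.30 and 2.90 in the glands labelled Thy-Tet1-/-. Every gland labelled Thy-Tet1-/- was thus below every control. On the log2 scale the means were 1.83 ± 0.23 and 1.38 ± 0.17, and the difference of -0.45 gave p = 0.1 in the exact permutation test, the smallest it can give, or 0.3 adjusted over the 3 ratios compared. Leaving out 1 library at a time moved the difference between -0.58 and -0.35. Per kilobase of exon, Thra made up 82.9%, 86.8% and 85.5% of the receptor level in Thy-Tet1+/+ and 80.9%, 78.7% and 82.3% in the other group, so both groups held several times more Thra than Thrb.

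**Figure D3:**
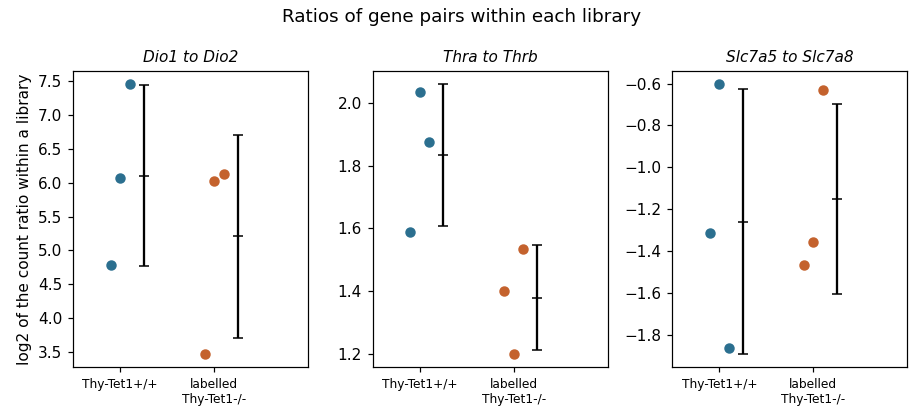
Log2 ratio of counts within each library for Dio1 to Dio2, Thra to Thrb and Slc7a5 to Slc7a8, with 1 point per mouse and the mean with SD (n = 3) beside the points. The groups are apart only for Thra to Thrb, where the difference of the means is -0.45.

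Crym (NCBI gene 12971, chr7:120186380-120202111, minus strand) encodes mu-crystallin, a cytosolic protein that binds T3. It was read 1, 13 and 7 times in Thy-Tet1+/+ and 12, 3 and 7 times in the glands labelled Thy-Tet1-/-, or 0.119 to 0.695 CPM. A count of 3 corresponds to 0.150 to 0.338 CPM of a library total here, so the values rest on few reads. With no filter on low counts the gene could be fitted, and the log2 fold change was -0.09 ± 0.77 (adjusted p = 0.967, edgeR).

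The 9 genes differed from each other far more than any of them did between the groups. Per kilobase of exon, Dio1 was at 148 CPM on average over the 6 libraries, more than 99.1% of the 17033 genes with a read and a known length. Thra followed at 12.9 CPM per kilobase, above 80.5% of them. Slc7a8 at 2.95, Thrb at 2.62, Slc16a10 at 2.23, Slc7a5 at 1.67 and Dio2 at 1.42 CPM per kilobase lay between 36.4% and 47.2%, and each of these 5 overlapped its neighbours among them across the libraries. Slco4a1 at 0.245 and Crym at 0.117 CPM per kilobase were the lowest of the 9 and overlapped each other, and 1 library of Dio2, that of Thy-Tet1+/+ mouse 3, lay within the range of Slco4a1. No library of Dio1 overlapped any of Thra, and none of Thra overlapped any of Slc7a8.

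**Figure D4:**
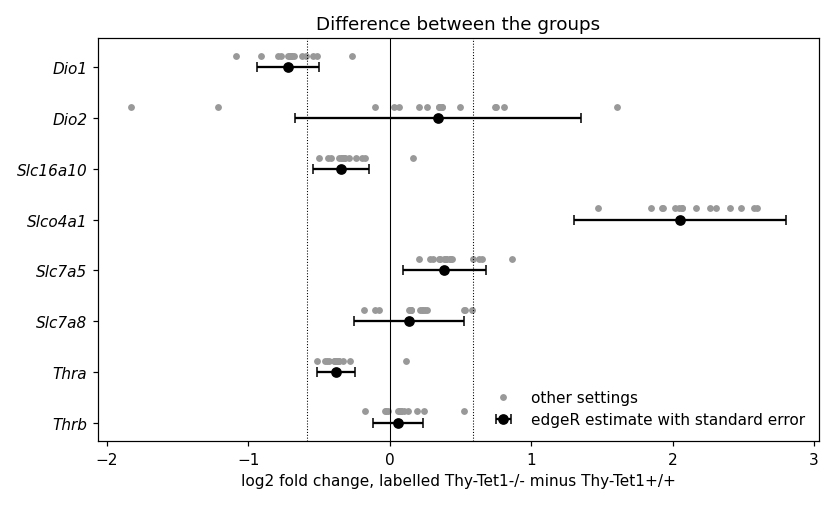
Log2 fold change between the groups for the 8 tested genes (black, edgeR estimate with standard error) and under the other settings (grey), with dotted lines at the fold limit. Dio1 stays below 0 and Slco4a1 and Slc7a5 above 0 in every setting run, while Dio2, Slc16a10, Slc7a8, Thra and Thrb change sign in at least 1.

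The rest of the pathway was counted in 5 lists of 61 genes, of which 48 were tested. Past the limits were 4 of the 48, 8.33% against 9.2% of all genes, with Wsb1 higher and Klf9, Atp2a2 and Mbp lower in the glands labelled Thy-Tet1-/-. The edgeR test called 0 of them after adjustment, against 0.113% of all genes, with 9 of the 48 below an unadjusted p of 0.05, and their median log2 fold change was 0.03. These shares are near those of all genes.

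Of the other hormone carriers, 7 of 14 were tested and 0 were past the limits, against 9.2% of all genes. Lists this short can hold 0 at that share, so a 0 says little about a list. Most OATP genes of liver and brain barely had a read. The smallest p among the carriers was that of Slc7a7, the light chain of a cationic amino acid exchanger (log2 fold change -0.73 ± 0.37, adjusted p = 0.340, edgeR). All 16 receptor partners and cofactors were tested, with 0 past the limits, against the same 9.2%. The smallest p was that of the coactivator Ncoa3, at 194, 167 and 122 CPM in Thy-Tet1+/+ and 110, 115 and 117 CPM in the glands labelled Thy-Tet1-/- (-0.50 ± 0.18, adjusted p = 0.203, edgeR).

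The machinery that makes deiodinases as selenoproteins and degrades them held 14 genes, of which 13 were tested. Of the 13, against 9.2% of all genes, 1 was past the limits. This was Wsb1, the ubiquitin ligase adaptor that marks the type 2 deiodinase for degradation, at 19.2, 32.6 and 35.0 CPM in Thy-Tet1+/+ and 50.7, 44.6 and 68.5 CPM in the glands labelled Thy-Tet1-/-. All 3 of the latter were above all controls (0.91 ± 0.26, adjusted p = 0.152, edgeR). Of the genes for hormone binding in blood and for conjugation, only 2 of 7 were tested and 0 were past the limits, against 9.2%. The phenol sulfotransferase Sult1a1, which can sulfate thyroid hormone, was at 36.4, 36.8 and 32.6 CPM and at 57.0, 47.1 and 50.7 CPM, without overlap and just inside the fold limit (0.55 ± 0.12, adjusted p = 0.102, edgeR).

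Of 10 genes known to respond to T3 in liver, brain, heart or fat, all were tested and 3 were past the limits, all lower in the glands labelled Thy-Tet1-/-, against 3.66% of all genes. Klf9, a zinc finger repressor that also responds to glucocorticoids, was at 225, 281 and 197 CPM in Thy-Tet1+/+ and at 99.6, 120 and 106 CPM in the other group (-1.11 ± 0.16, adjusted p = 0.073, edgeR). Atp2a2, the calcium pump SERCA2, was at 510, 461 and 456 CPM and at 294, 296 and 324 CPM (-0.64 ± 0.12, adjusted p = 0.0896). Mbp, the myelin basic protein, was at 96.5, 153 and 75.7 CPM and at 52.5, 63.9 and 47.0 CPM (-0.99 ± 0.27, adjusted p = 0.134), while the 4 Schwann cell markers summed to 95.9 to 127 CPM and 89.3 to 135 CPM with 0 past the limits. None of the 3 genes overlapped between the groups, but they were named for being past the limits. Without overlap were 30% of the list, against 26.8% of all tested genes. Klf9 was past the limits in every setting run, as was Wsb1 above. Atp2a2 and Mbp were not when libraries were scaled to 10 epithelial genes or mouse 1 of each group was left out. With the brown adipocyte score as a covariate, Mbp was not past them either.

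The other T3-responsive genes were not past the limits in the test as reported, and their values pointed both ways. Thrsp, a lipogenic protein of liver and fat, had the highest estimate of the 48, at 165, 88.8 and 53.7 CPM and 401, 280 and 93.5 CPM (1.34 ± 0.59, adjusted p = 0.281, edgeR). Its libraries followed the same order as the 5 adipocyte markers, which summed to 476, 273 and 159 CPM and 1467, 740 and 368 CPM. Of these 5 markers, 2 were past the limits, both higher in the glands labelled Thy-Tet1-/-, against 5.54% of all genes. The part of fat in the Thrsp level was not tested. Thrsp was past the limits with DESeq2, with no filter on low counts, with a replicate block and with libraries scaled to 10 epithelial genes. So it was with the skeletal muscle score as a covariate, without Thy-Tet1+/+ mouse 1 and without mouse 3 labelled Thy-Tet1-/-. The median log2 fold change of the 10 genes was -0.29.

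**Figure D5:**
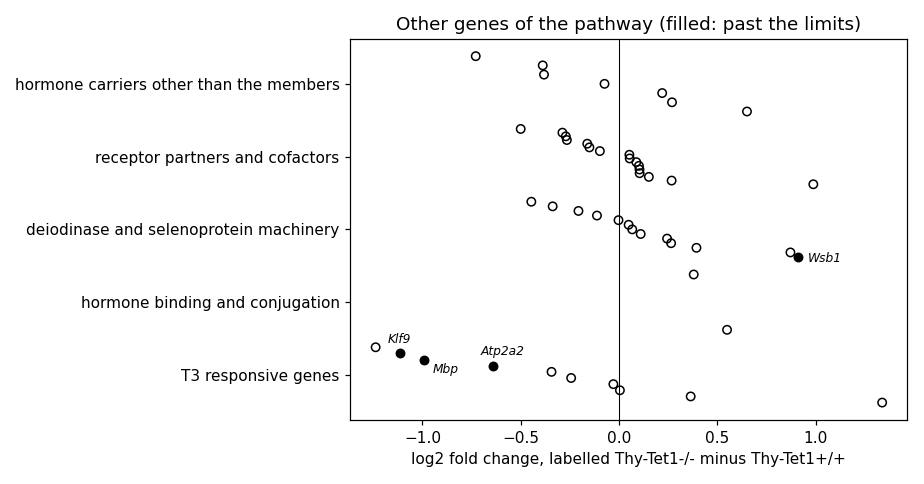
Log2 fold change of the 48 tested genes in 5 pathway lists, 1 point per gene, with filled points for the 4 past the limits. The 3 named points of the T3-responsive list lie below 0, at -1.11, -0.99 and -0.64, and Wsb1 lies above it at 0.91.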

How the data were processed

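Poly(A) RNA of 6 thyroid glands had been sequenced, and the authors deposited raw counts per gene as whole numbers without normalization, with mm10 named in the submitters' processing notes. The aligner, the counter and its strand setting are not given in the sources used here. Of 21878 genes, 4100 had no read, and 27 symbols turned into dates were restored by NCBI gene identifier. Counts were filtered (filterByExpr), scaled by TMM and tested with edgeR 4.0.16 (quasi-likelihood, 3 against 3 libraries, no covariate) in R 4.3.3, with Benjamini-Hochberg adjustment over 14143 genes. The edgeR p-values set the difference between the groups against the spread between these mice. The common biological coefficient of variation was 0.327. DESeq2 1.42.0, limma-voom 3.58.1, other filters and scalings, covariates and left-out libraries were alternatives. Ratios were compared by exact permutation tests, with 0.5 added to counts in the test. Positions and exon lengths came from GENCODE on GRCm38, the build mm10 names. Replicates differed by more than sampling noise. The scripts were tested on simulated counts.

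The 9 genes, the pathway and marker lists and the tests were chosen with earlier results of these data known. Named were all 9 genes, Tet1, genes overlapping them, Slc3a2, Dio3, and the genes of each pathway list past the limits or, with none, the one with the smallest p. One further gene of that rule is not reported here. Selenop is in the table under an older symbol. Thrsp was named after its values were seen.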

Additional observations from a re-analysis of the deposited data

How the results depend on the processing

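Scaling to 10 epithelial genes in place of TMM shifted the median of all tested genes to 0.50 on the log2 scale and gave 4104 genes past the limits, 98.2% of them higher, against 1301 and 60.2% with TMM. It gave 14 pathway genes past the limits in place of 4, among them Klf9 and Wsb1 but neither Atp2a2 nor Mbp, and turned Thra to 0.11 and Slc16a10 to 0.17. Relative to that shifted median, Dio1 was at -0.76 and Thra at -0.38, near their TMM values because rescaling shifts all genes about alike. Dio1 itself (-0.27) was no longer past the limits while Slc7a5 and Slco4a1 were. Of the 9 genes, the number past the limits was 2 in the test as reported, beside 1301 of all 14143 tested genes. With at least 10 counts required in every library, which removed Slco4a1, the number was 1, beside 1225 of 12804. With the skeletal muscle score as a covariate the number was 0, beside 1065 of 14143. When 1 library was left out at a time the number was 1 to 2, beside 1074 to 1502 of all genes. The pathway count was then 4 to 7.

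After the data had been seen, the brown adipocyte score was added as a covariate. It left 1 of the 9 genes past the limits (Dio1), beside 1669 of all 14143. In another setting added then, mouse 1 of each group was left out, which left 0 (Dio1 -0.59, Slco4a1 2.31), beside 1139 of 14287. With that covariate Dio2 turned to -1.83, Slc7a8 to -0.079 and Thrb to -0.17. Leaving out 1 library at a time, Dio2 ran from -1.22 to 1.604, Slc7a8 from -0.18 to 0.53 and Thrb from -0.036 to 0.24. The causes were not tested.

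Same-numbered mice did not deviate together (r = -0.17, -0.37 and -0.19), which gave no sign that the numbers pair them. Because the deviations within each group sum to 0, this check could not show that the mice were unpaired. For Dio2 a replicate block gave a log2 fold change of 0.21 ± 0.25, against 0.34 ± 1.01 without it. With the replicate block, 1145 genes, 2 of the 9 genes and 5 pathway genes were past the limits, and the ratio of Thra to Thrb differed by -0.45 with an exact sign-flip p of 0.25, the smallest 3 pairs allow. RLE scaling, DESeq2, limma-voom and no filter kept Dio1 and Slco4a1 past the limits. Few reads limit the values of Crym and Slco4a1.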
